A study of Mus musculus with 8 samples.

Results

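The regions described here are 1985 places between genes where FOS was called recurrently in mouse microglia and where no peak of a second deposited list, the IL-33 list, was merged in. They were chosen by 4 conditions read from the deposited table and an mm10 annotation: a FOS peak was present, the IL-33 list column was empty, the name of the FOS peak ended in 4, and the centre of the region lay outside every protein-coding gene body, more than 1 kb and at most 100 kb from the nearest one. They made up 6.06% of all 32773 regions in the table and 31.1% of the 6382 FOS-only regions with 4 calls. The number at the end of a FOS peak name is called the number of calls here. It runs from 1 to 4. That it counts the FOS libraries in which the peak was found is a reading of this range, not a statement of any source. Calls, list membership and position were thus selected on and are not findings.

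The study sequenced FOS chromatin immunoprecipitates (antibody 9F6) and matching inputs from cortical microglia of 4 mice, giving 4 FOS libraries and 4 inputs. Each mouse was at postnatal day 30 and had received IL-33 into a cerebral ventricle on 1 side 4 h earlier, and microglia were collected by Percoll gradient and flow sorting. Strain, genotype and sex are not given in the labels, and no vehicle-injected mouse was among those of the FOS libraries. The header of the IL-33 list column names IL-33 against vehicle, but no assay or samples behind it. No FOS value below therefore compares IL-33 with vehicle. The only values are 1 score per merged region, so no value has a spread between mice.

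FOS is a subunit of AP-1, a family of leucine-zipper factors in which FOS proteins pair with JUN proteins and bind the heptamer TGANTCA, most often with C or G in the middle, and a related longer site, TGACGTCA. In macrophages AP-1 binds largely at enhancers, stretches of regulatory DNA that can lie far from the gene they act on, together with the lineage factor PU.1. IL-33 is an alarmin of the interleukin-1 family that acts through the receptor chain ST2 and the adaptor MYD88, upstream of NF-kappaB and of the MAP kinases that induce and modify AP-1.

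Sequence could be read where a region reached into the start window of a long non-coding RNA gene, that is from 250 bases before to 50 after its RefSeq start on GRCm38.p6. Such overlap was found for 58 of the 1985 regions, and 36 had at least 200 bases inside the window. Among these 36, 11 (30.6%, exact 95% interval 16.3 to 48.1%) held TGANTCA in the covered stretch on either strand, beside 9.49% of all 9533 lncRNA start windows of 300 bases. Over the 33 different whole windows covered the share was 30.3%, for 28 windows covered by 1-call regions between genes it was 10.7% (2.27 to 28.2%), and for 538 coding start windows covered by 4-call FOS-only regions at gene ends it was 7.62% (5.52 to 10.2%). The windows differed in base composition, with a median GC content of 50% for those covered here, 48.7% for all lncRNA windows and 61.3% for the coding windows, and whether this bears on the shares was not tested. The 12 heptamers lay at a median of 51.5 bp from the centre of their region, 6 of them within 50 bp, and 11 of the 12 read TGACTCA or TGAGTCA. Median scores were 38.2 for the 11 regions with a heptamer and 35.4 for the 25 without.

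The first 4 stretches printed hold a heptamer and were taken because they lie in regions nearest to Cebpb or Atf3, hold more than 1 heptamer (Gm40491) or belong to a dense group of regions described below (1110002J07Rik), and 2 without one follow for contrast. Each is the covered part of the region, 5′ to 3′ on the strand of the lncRNA, with every TGANTCA in capitals.
Gm32287 (nearest coding gene Cebpb, chr2:167777365-167777664, minus strand): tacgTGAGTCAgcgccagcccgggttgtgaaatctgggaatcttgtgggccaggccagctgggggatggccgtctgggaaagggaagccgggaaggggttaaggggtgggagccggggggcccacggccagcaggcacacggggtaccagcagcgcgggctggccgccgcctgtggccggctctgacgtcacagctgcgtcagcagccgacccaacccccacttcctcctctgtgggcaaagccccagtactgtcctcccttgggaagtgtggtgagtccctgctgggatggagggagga
D730003I15Rik (nearest coding gene Atf3, chr1:191224276-191224503, plus strand): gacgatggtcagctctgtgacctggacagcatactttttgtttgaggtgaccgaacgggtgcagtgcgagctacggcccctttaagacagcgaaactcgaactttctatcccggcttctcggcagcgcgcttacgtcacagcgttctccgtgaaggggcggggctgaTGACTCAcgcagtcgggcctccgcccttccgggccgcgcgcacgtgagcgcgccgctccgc
Gm40491 (nearest coding gene Irf2bpl, chr12:86833714-86834013, minus strand): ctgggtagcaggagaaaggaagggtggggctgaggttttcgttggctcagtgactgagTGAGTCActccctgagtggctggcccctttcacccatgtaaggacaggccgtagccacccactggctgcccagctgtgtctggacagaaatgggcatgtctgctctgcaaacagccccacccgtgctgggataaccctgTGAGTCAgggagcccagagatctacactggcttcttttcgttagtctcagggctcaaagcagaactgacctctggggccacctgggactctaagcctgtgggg
1110002J07Rik (nearest coding gene Reep3, chr10:66920335-66920631, minus strand): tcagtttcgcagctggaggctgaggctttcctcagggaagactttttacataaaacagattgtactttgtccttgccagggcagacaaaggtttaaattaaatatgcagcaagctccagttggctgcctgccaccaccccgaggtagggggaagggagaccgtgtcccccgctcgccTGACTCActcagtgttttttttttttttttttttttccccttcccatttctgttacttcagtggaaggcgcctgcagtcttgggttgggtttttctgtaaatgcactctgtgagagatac
Gm30198 (nearest coding gene Lgmn, chr12:102451503-102451782, plus strand): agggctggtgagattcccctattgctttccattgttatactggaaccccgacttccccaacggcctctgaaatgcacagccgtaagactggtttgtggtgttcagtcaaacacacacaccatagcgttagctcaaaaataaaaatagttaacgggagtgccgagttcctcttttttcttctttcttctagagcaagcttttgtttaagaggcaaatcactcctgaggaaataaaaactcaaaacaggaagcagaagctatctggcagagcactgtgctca
F630028O10Rik (nearest coding gene Vsig4, chrX:96239676-96239944, plus strand): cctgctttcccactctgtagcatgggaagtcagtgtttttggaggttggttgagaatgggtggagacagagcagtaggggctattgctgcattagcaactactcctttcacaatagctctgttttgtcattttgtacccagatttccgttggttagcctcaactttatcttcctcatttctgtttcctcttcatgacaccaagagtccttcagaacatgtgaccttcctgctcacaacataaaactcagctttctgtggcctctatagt
The stretch at Gm40491 was the only one of the 36 with 2 heptamers, at 41 and 98 bp from the centre of a region that scored 43.5. In the regions at 1110002J07Rik and D730003I15Rik the heptamer lay 8 and 28 bp from the centre. The stretch at Gm32287, from a region that scored 68.3, carried its heptamer 118 bp from the centre and also held TGACGTCA. Those at Gm30198 and F630028O10Rik scored 91.0 and 21.2 and held neither sequence in the part that could be read, which says nothing of the bases outside it.

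The starts of the nearest coding genes were searched in the same way. Of the 1360 coding genes nearest to at least 1 region, 1085 had a start window, and 60 of these (5.53%, 4.25 to 7.06%) held TGANTCA, beside 7.08% of all 17492 coding start windows. Their median GC content was 61.0%, against 56.3% for all coding windows. No comparison with the 30.6% above was tested, since those stretches lie in the FOS regions themselves and these windows, by the distance rule, do not hold the centre of one.

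Scores ranged from 7.10 to 142.25, with a median of 36.55 and quartiles of 26.4 and 49.7. The score is the authors' own value for each region, no label or header gives its scale, and it is used only to rank regions within this table. The median was 35.6 in 2890 regions with 4 calls deep inside genes, 33.65 in 1177 at gene ends (within 1 kb of an end of a gene body), and 33.1 in 330 more than 100 kb from any gene. It was 40.85 in 339 shared regions with 4 calls between genes, after the score was restored for the IL-33 list peaks merged into them. FOS-only regions between genes had medians of 23.1 with 3 calls, 16.85 with 2 and 10.3 with 1. The number of calls was selected on, so these values are a description and no measure for the differences between positions. A score of 50 or more was reached by 490 regions (24.7%), 75 by 98 and 100 by 14. Widths ran from 320 to 683 bp, with a median of 350 bp.

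**Figure D1:**
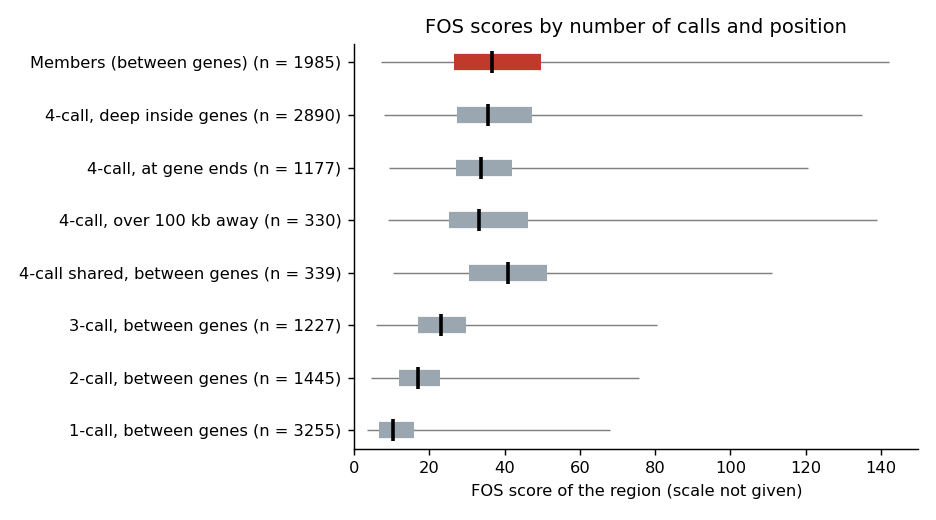
FOS score (horizontal axis, scale not given) of each class of regions (rows): thin lines run from lowest to highest, thick bars from the lower to the upper quartile, and ticks mark medians. The 1985 regions between genes have a median of 36.55, close to the 35.6 of 4-call regions deep inside genes and above the 10.3 of 1-call regions between genes. The number of calls was selected on.

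Several of the highest scores lay beside genes of inflammation and of myeloid cells. The region with the highest score, 142.25, lay on chromosome 17 at 26535259 to 26535650, 25308 bp upstream of Ergic1, and 1441 bp from it stood a region of 99.8, 25541 bp upstream of Dusp1, the phosphatase that switches off MAP kinases. Cebpb, a leucine-zipper factor that drives inflammatory genes in macrophages, had a region of 135 lying 63669 bp downstream. Il1a, a cytokine of the interleukin-1 family, had one of 129 at 9994 bp upstream. Itgam, the CD11b integrin chain, had one of 128 at 13635 bp upstream.

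Next in rank came Wfdc21 (122), C3ar1 (122), Cd69 (118), Socs3 (117), Cd9 (116), Cx3cr1 (110), Col15a1 (109), Man1a (102), Plekho2 (100.5) and Mcl1 (100). C3ar1 is the receptor for the complement fragment C3a, Socs3 a feedback inhibitor of cytokine receptors, Cx3cr1 the fractalkine receptor of microglia and Mcl1 a survival factor of the BCL2 family. Of the 15 highest regions, 11 lay within 10 kb of an IL-33 list region. The exceptions were those beside Cd9 (15682 bp), Col15a1 (37049 bp), Mcl1 (109352 bp) and Man1a, where the nearest IL-33 list region was farther still.

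Distance from the nearest coding gene body had a median of 15410 bp, with quartiles of 6167 and 36145 bp. Just inside the lower limit lay regions beside Ms4a6b (1043 bp, score 21.3), Fundc1 (1049 bp, 16.8), Sucnr1 (1059 bp, 36.2), Orai2 (1059 bp, 51.0) and Plek2 (1071 bp, 12.975). Just outside it lay those of Aldh3b1 (992 bp, 47.3), Mfsd12 (987 bp, 37.7), Errfi1 (983 bp, 23.0), Tnfrsf14 (974 bp, 42.6) and Olfr433 (972 bp, 47.9). At the upper limit the last inside were at Dtnbp1 (99867 bp, 43.4), Smad1 (99369 bp, 37.4), Pik3r1 (98827 bp, 32.5), Tomm20 (97931 bp, 91.3) and Dlx2 (97461 bp, 17.8). The first beyond it were at Ppm1h (100597 bp, 38.6), Tmsb4x (100889 bp, 23.8), Rbpj (100923 bp, 62.1), Zcchc13 (101144 bp, 27.7) and Irf2bp2 (101641 bp, 33.0). With 5 regions on each side, these values only describe the limits.

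Space between genes was not filled evenly. Per megabase of space at each distance there were 3.50 regions at 1 to 5 kb from a gene, 3.14 at 5 to 10 kb, 2.60 at 10 to 25 kb, 2.07 at 25 to 50 kb and 1.42 at 50 to 100 kb, beside 2.36 over the whole range. The decline was shared with 1-call FOS-only regions, which went from 5.45 to 2.48 per megabase over the same distances. Median scores did not follow the density and were 37.6, 38.7, 36.1, 34.2 and 36.2 from the nearest to the farthest class. Where the strand of the nearest gene was known, 922 of 1566 regions (58.9%, 56.4 to 61.3%) lay upstream of it and 644 downstream, and 1-call regions had 57.1% upstream. Median scores were 36.1 upstream and 36.4 downstream.

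**Figure D2:**
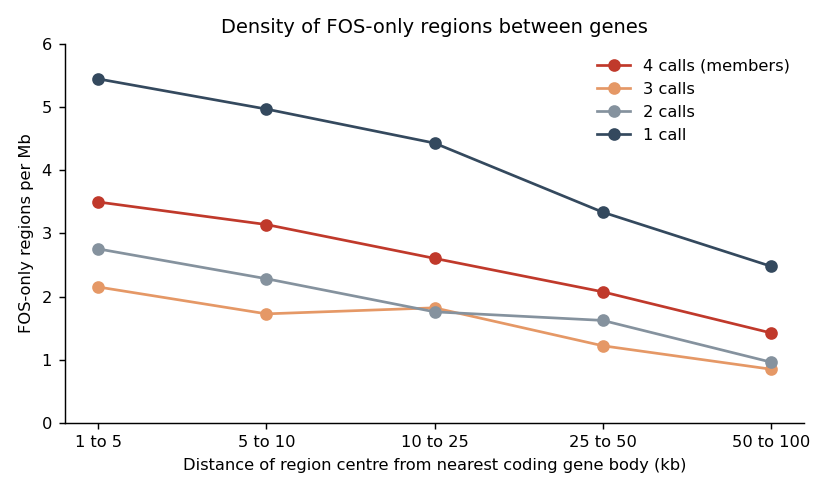
FOS-only regions per megabase of space between genes (vertical axis) in classes of distance from the nearest coding gene body in kb (horizontal axis, unequal steps), by number of calls. Regions with 4 calls go from 3.50 per megabase at 1 to 5 kb to 1.42 at 50 to 100 kb, and those with 1 call from 5.45 to 2.48.

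Chromosomes differed in both number and score. Chromosome 11 held 169 regions, 4.71 per megabase of space, the highest density of any chromosome, and the other autosomes ranged from 1.73 per megabase on chromosome 14 to 3.26 on chromosome 19. Chromosome X held 54, or 0.827 per megabase, and chromosome Y none. On X the median score was 17.5 and the highest 39.8, against a median of 37.1 on the autosomes. Medians were also lower on X in regions with 4 calls deep inside genes (17.9 on X, 35.85 on autosomes) and at gene ends (17.7 and 34.1). In 1-call regions between genes the medians lay closer together (7.31 and 10.4). The sex of the mice is not given in the labels, and no cause of this gap was tested.

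Spacing along the chromosome showed that these regions mostly stood near other FOS regions. The next FOS region of any kind lay at a median of 5269 bp, and for 1598 regions (80.5%, 78.7 to 82.2%) it lay within 12500 bp. That share was 80.6% for 4-call regions deep inside genes, 61.9% at gene ends and 54.4% for 1-call regions between genes. Of the 1598 nearest neighbours, 671 (42.0%) had 4 calls and 375 (23.5%) had 1, and 1295 (81.0%) were themselves between genes. Among all 29925 FOS-only regions, 6382 had 4 calls. The 81.0% is partly set by the rule, since a neighbour within 12500 bp can lie in the same stretch between genes. Another region of the same class lay within 12500 bp for 720 (36.3%). Joined by gaps of at most 12500 bp, the 1985 regions formed 1265 singles, 230 pairs, 69 runs of 3, 7 of 4 and 5 of 5.

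The 5 runs of 5 lay in very different surroundings. On chromosome 18 a run of 20404 bp stood between E230025N22Rik and Cd14, the lipopolysaccharide co-receptor of Toll-like receptors, with scores of 54.0, 71.2, 88.7, 37.3 and 63.6 in order of position and 4 IL-33 list regions within 12500 bp. Upstream of Eed, a subunit of the Polycomb repressive complex PRC2, a run of 22018 bp scored 86.5, 76.0, 64.1, 62.3 and 53.7, with no IL-33 list region within 12500 bp. Around 1110002J07Rik, whose start is printed above, with Reep3 as the nearest coding gene, a run of 16826 bp scored 35.0, 25.8, 71.5, 65.7 and 68.4, the lowest members standing together at 1 end.

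The remaining runs of 5 had lower scores. Between Tgm2, a transglutaminase, and D630003M21Rik a run of 15504 bp scored 31.6, 49.9, 22.7, 30.1 and 53.9. On chromosome X a run of 20976 bp had Zcchc13 as the nearest coding gene, 58271 to 79247 bp away. It scored 19.4, 21.2, 19.8, 21.0 and 14.3, all below the median of the whole class and close to the X median of 17.5. Its last region lay 606 bp from the microRNA gene Mir421. Among the runs of 4, that upstream of Lgmn, a lysosomal endopeptidase, was the highest, with scores of 58.8, 72.2, 91.0 and 92.8. The third of these is the region whose sequence is shown under Gm30198.

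**Figure D3:**
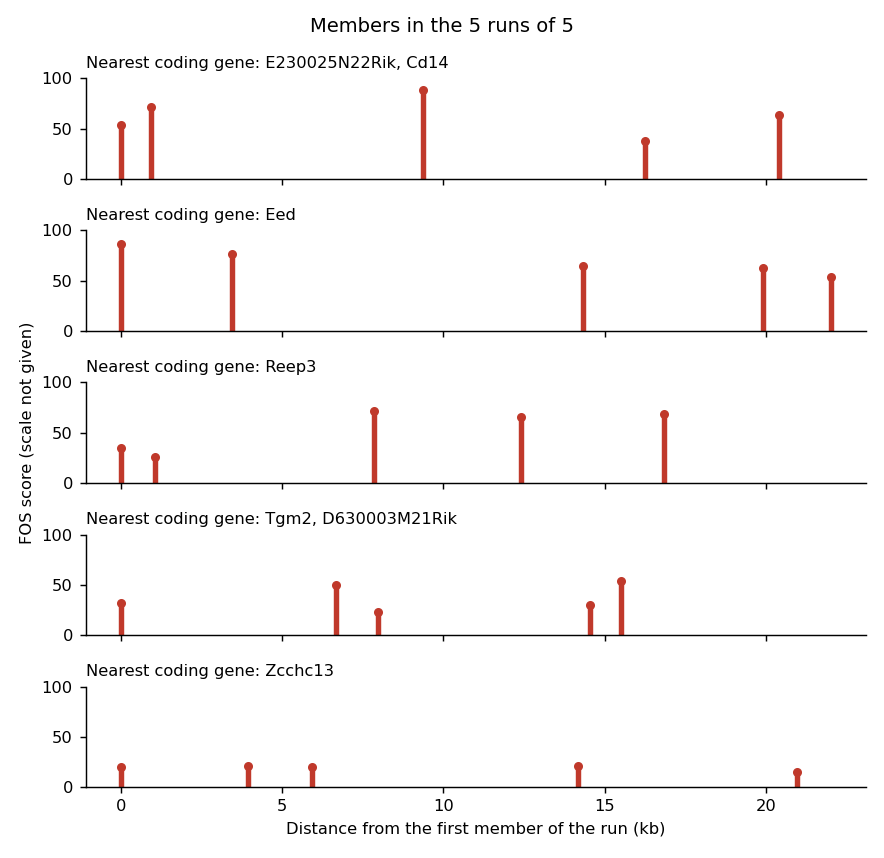
FOS score (vertical axis, scale not given) of each region in the 5 runs of 5, by distance in kb from the first region of its run (horizontal axis), with the nearest coding genes named. The run at Eed scores 53.7 to 86.5 and that at Zcchc13 14.3 to 21.2.

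Counted by nearest gene, which is a label of position and not a target, 1360 of 21887 coding genes (6.21%) had at least 1 region. Of these, 945 had 1 region, 281 had 2, 87 had 3 and 47 had 4 or more. Genes with a region had a median of 48.5 kb of surrounding space in which one could fall, against 15.7 kb for genes without. For many of the gene lists below, though not all, counts are therefore also given per megabase of that space. Zfp36l2, an RNA-binding protein that shortens the life of AU-rich mRNAs, had 7, scoring 35.2 to 52.9 and standing 2098 to 88618 bp away. Next, with 6 each, came Cebpb, Tomm20, Eed, Fos, Reep3, Tnfaip3 and Ubl3, followed by Trib1 and Irf2bp2 with 5.

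Tomm20, a subunit of the mitochondrial import receptor, had 6 regions, all downstream, 48645 to 97931 bp away, the highest at 94.9. Trib1, a pseudokinase that promotes degradation of C/EBP proteins, had its 5 regions at 60114 to 87565 bp, with scores of 97.975 and 93.925 at the top. Irf2bp2, a corepressor that partners IRF2, had regions up to 63.95, 2428 bp away. Ubl3 had none above 40.6. High counts thus did not go with a fixed distance or score.

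Genes of the AP-1 family had many regions for their space. Of the 20 AP-1 and related factors listed, 12 (60%) had at least 1 region, beside 6.21% of all coding genes. The list had 31 regions in all, with a median score of 50.2. That is 25.9 per megabase of its space, beside 2.36 over all genes. The 31 include those of neighbouring genes, Fos with Jdp2 and Atf3 with Batf3, so they are not spread evenly over the family. Fos had 6, of which 3 were upstream with scores of 82.7, 85.2 and 58.6 at 5046, 18733 and 36145 bp, and 3 downstream with scores of 51.1, 39.8 and 85.9 at 12148, 46643 and 55468 bp. Atf3, a stress-induced partner of JUN proteins, had 5, all upstream, from 10953 to 47408 bp away and scoring 60.5, 59.75, 56.65, 47.0 and 32.9. Batf3, a BATF factor known from dendritic cells that lies near Atf3 on the same chromosome, had 3 downstream, at 75.4, 55.55 and 40.0. Jdp2, an inhibitory JUN partner that lies near Fos on the same chromosome, had 4, up to 50.2. Fosb had 69.7 and 28.2, and Jun 1 of 67.3 at 53914 bp. Junb, Jund, Fosl1, Batf and Batf2 had none, and Junb and Jund had only 4.06 and 8.49 kb of space.

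Immediate early genes, which cells switch on without new protein synthesis, had a region at 13 of 22 (59.1%), beside 6.21% of all coding genes. They had 17.1 regions per megabase of space, beside 2.36 over all genes. Btg2, an antiproliferative factor, had 3, scoring 92.75, 50.4 and 36.25. Ier3 had 78.9 and 69.8 at 44704 and 8256 bp upstream. Myc, a growth-promoting transcription factor, had 63.0, 56.4 and 47.5, and Klf6, a zinc-finger factor, 4 up to 53.1. Egr1 had 1 of 51.35. Egr2, Egr3, Nr4a1, Arc and Npas4, of which the last 2 are best known from neurons, had none.

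Feedback regulators had a region at 33.3% of MAP kinase phosphatases, 37.5% of SOCS-family genes and 17.6% of the NF-kappaB list, beside 6.21% of all coding genes. Dusp1 had all 4 of its regions within 10 kb of an IL-33 list region, at scores of 99.8, 79.4, 63.6 and 58.2. Dusp6 had 2 up to 51.4 and Dusp5 1 of 30.8, and the other 6 of 9 MAP kinase phosphatases had none. Socs3 had 3, all downstream, at 116.9, 93.6 and 49.975, and Socs2 and Socs5 had 1 each, at 39.2 and 13.6, of 8 SOCS-family genes. In the NF-kappaB list 3 of 17 genes had a region. Tnfaip3, the ubiquitin-editing inhibitor A20, had 6 between 24.1 and 64.0, from 18442 bp away. Nfkbiz had 1 of 31.5 and Cyld 1 of 20.8, whereas Nfkbia, Nfkb1 and Rel had none.

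In the list of the IL-33 receptor and MYD88 pathway, 3 of 16 genes (18.75%, 4.05 to 45.6%) had a region, beside 6.21% of all coding genes, or 4.69 per megabase, beside 2.36: Tab2 with 41.9 and 27.0, Map3k8 with 37.05 and Myd88 with 34.3. Il1rap and Il33 had none, nor did Il1rl1, which encodes ST2 and was assigned 7 FOS regions of any kind within 100 kb. Pattern recognition receptors had a region at 9 of 32 genes (28.1%), or 10.5 per megabase, beside the same 6.21% and 2.36. They were led by Tlr1 (63.8 and 52.4, both within 10 kb of an IL-33 list region), Cd14 (63.6 and 37.3) and Tlr2 (55.95 and 27.0). Tlr4, Clec7a and Cd36 had none.

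Cytokine and chemokine genes had a region at 14 of 32 (43.75%), beside 6.21% of all coding genes, with 20.4 per megabase, beside 2.36. Besides Il1a, Ccl5 had 3 (84.3, 66.7 and 46.6), Ccl3 1 of 81.45 and Il6 1 of 72.1 lying 64770 bp upstream. Il1b had 3 up to 61.1, each within 10 kb of an IL-33 list region. Ccl2, the monocyte chemoattractant, had 3 up to 42.8. Tnf, with 0.53 kb of space, and Cxcl1 and Cxcl2 had none, and Cxcl10 had no space under the distance rule. Neighbouring chemokine genes share the space between them, so the gene named is the nearest by position.

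Myeloid transcription factors had a region at 11 of 22 (50%), beside 6.21% of all coding genes, with 13.2 per megabase, beside 2.36. Cebpb had 6, all downstream: those nearest to it, at 7669 and 50529 bp, scored 32.4 and 51.0, and the others, at 63669 to 87107 bp, scored 134.85, 61.9, 77.4 and 68.3. The latter 4 each lay within 2 kb of an IL-33 list region. Irf8, an interferon regulatory factor needed for microglia, had 5 between 29.75 and 42.4. Zeb2 had 64.3 and 40.4 and Irf2 52.9 and 44.3. Sall1 had 28.0 and 21.4. Spi1, which encodes PU.1, had none in 5.14 kb of space. Absence was not confined to genes with little space: Mef2c, Ets1, Rbpj and Etv6 had none in 198, 144, 118.5 and 62.1 kb.

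Genes that mark homeostatic microglia had a region at 17 of 30 (56.7%), with 26.5 per megabase and a median score of 49.02. This and the next lists are to be read beside 6.21% of all coding genes and 2.36 regions per megabase. Cx3cr1 had 109.9 and 88.2, both downstream, and Siglech, a sialic-acid-binding lectin of microglia, 1 of 88.05. Bin1 had 3 up to 61.0, and Csf1r, the receptor for colony-stimulating factor 1, had 1 of 46.35. Tmem119 and Trem2 had none, and P2ry12 had no space under the distance rule. Genes of activated microglia had a region at 12 of 27 (44.4%), or 18.5 per megabase. They were led by Cd69 (118 and 85.1), Cd9 (116, 71.65, 57.4 and 38.1) and Cd52 (90.3 and 61.5). Many well-known genes of this list had none, among them Apoe, Axl, Cst7, Itgax, Clec7a, Spp1 and Gpnmb. Ch25h and Igf1 had none in 79.6 and 175 kb of space. The lowest score on the list, 15.2, was at Lgals3. Phagocytosis genes had one at 12 of 30 (40%), or 9.10 per megabase. Among them Fcgr1 had 88.0, Fcgr4 77.3 and 32.4, and Tyrobp, the DAP12 adaptor, 74.9. Of 20 complement genes, 2 had a region (10%, 1.23 to 31.7%), a share near the 6.21% of all coding genes. They were Itgam and C3ar1, whose regions are among the 15 highest scores.

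Lists of markers of other cells had shares from 0 to 33.3%, to be read beside the 6.21% of all coding genes. Those of neurons (20 genes), astrocytes (12), oligodendrocytes (12) and mast cells with type 2 innate lymphoid cells (13) had none. Exact 95% upper bounds for those shares were 16.8%, 26.5%, 26.5% and 24.7%, all above 6.21%. By share of genes, each of these lists is thus too short to be told from the background. Their space was 1.31, 0.833, 0.495 and 0.693 megabases, beside 2.36 regions per megabase over all genes. The absence of regions from that space was not tested. Monocyte and neutrophil markers had 1 of 16 (Ccr2, 40.9) and lymphocyte markers 2 of 15 (Ncr1, 24.6, and Ms4a1, 19.3). Border macrophages, which share many genes with microglia, had 4 of 12, with Siglec1 at 47.9 and 47.6, Cd163 at 40.0 and F13a1 at 33.4. Endothelial and mural markers had 3 of 14, mainly through Flt1, a receptor for vascular growth factors that had 4 upstream at 61.0, 33.45, 21.2 and 13.3, with Pecam1 at 37.5 and Kdr at 12.7. Lists differ in gene size, open space and activity in microglia, and the part of these in the counts was not tested.

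**Figure D4:**
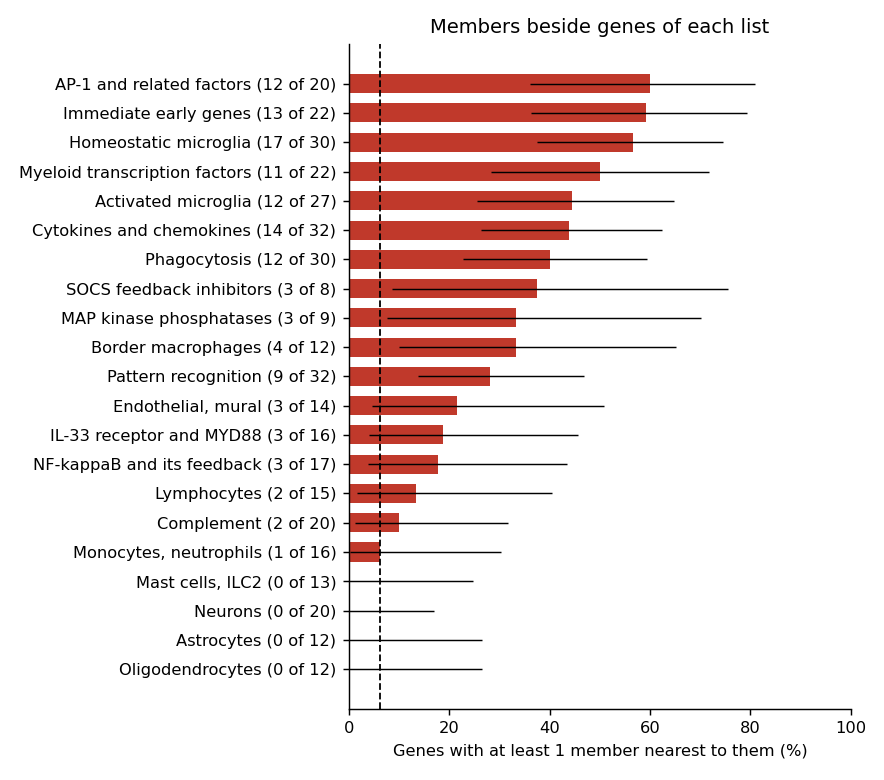
Percent of genes on each list with at least 1 of the regions nearest to them (horizontal axis), with the number of genes in parentheses. Thin lines are exact 95% intervals for counting error, and the dashed line marks the 6.21% of all coding genes. AP-1 factors stand at 60% and the neuron, astrocyte, oligodendrocyte and mast cell lists at 0.

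A minority of these regions had a region of the IL-33 list close by, although the rule excluded overlap. Of the 1985 regions, 104 (5.24%) had the centre of an IL-33 list region within 1 kb, 334 (16.8%, 15.2 to 18.5%) within 10 kb and 710 (35.8%) within 50 kb, with a median distance of 125801 bp. Within 10 kb, 169 stood near a region shared by both lists, 246 near one of the IL-33 list alone, and 81 near both. Regions with 4 calls deep inside genes had a like share within 10 kb, 16.7% (15.3 to 18.1%), and those at gene ends 9.35%. FOS-only regions between genes with 3, 2 and 1 calls had 10.8%, 7.40% and 4.67%.

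The share near an IL-33 list region was larger at higher FOS scores. It was 7.63% (5.46 to 10.3%) in the lowest quartile of score, 11.9% and 15.7% in the middle quartiles, and 32.1% (28.0 to 36.4%) in the highest. Seen from the other side, the 334 regions near an IL-33 list region had a median score of 48.1 and the other 1651 one of 34.85. The shares also differed in 4-call regions deep inside genes, from 8.15% to 29.2%, and in 1-call regions between genes, from 0.491% to 9.24%. No source used here gives the assay behind the IL-33 list.

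**Figure D5:**
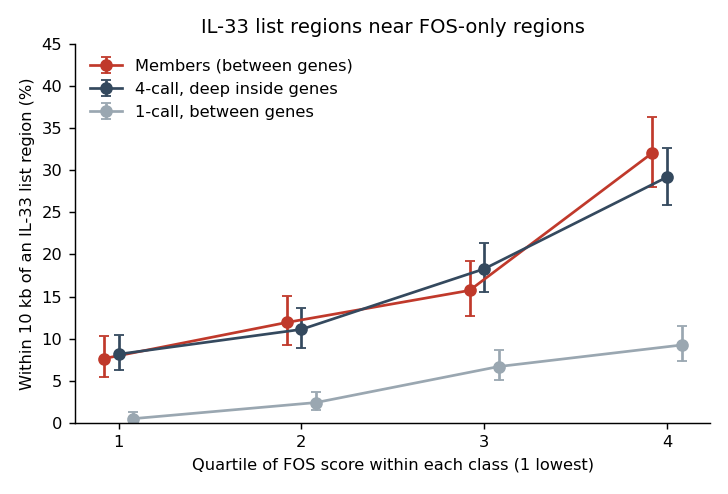
Percent of regions with an IL-33 list region within 10 kb (vertical axis) by quartile of FOS score within each class (horizontal axis, 1 lowest), with exact 95% intervals for counting error. Regions between genes go from 7.63% to 32.1% and 4-call regions deep inside genes from 8.15% to 29.2%.

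Being between protein-coding genes did not mean being outside all genes. The centre of 402 regions (20.3%, 18.5 to 22.1%) lay inside the body of a lncRNA gene, as did 19.8% of 1-call regions between genes. Of the 1922 regions on chromosomes with lncRNA start windows, 96 (4.99%) lay within 1 kb of a lncRNA start, against 4.22% of 1-call regions. Median scores were 39.25 inside a lncRNA body and 36.1 outside. Among the regions at lncRNA starts was one of 22.6 at Ptgs2os2, 56804 bp from Ptgs2, the inducible cyclooxygenase, and one of 57.9 at Dleu2.

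MicroRNA genes were a further kind of neighbour. Of 1005 hairpins in the RefSeq table, 33 (3.28%) had a region within 10 kb. Those described here are known from myeloid cells and were chosen after their values were seen. Their mature sequences are given 5′ to 3′ with the seed, bases 2 to 8, in capitals, because the seed decides which mRNAs a microRNA can pair with.
mmu-miR-146a-5p: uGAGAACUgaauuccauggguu
mmu-miR-146b-5p: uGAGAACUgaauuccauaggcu
mmu-miR-21a-5p: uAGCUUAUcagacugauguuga
mmu-miR-22-3p: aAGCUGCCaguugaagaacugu
mmu-miR-223-3p: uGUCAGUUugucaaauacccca
mmu-miR-23a-3p: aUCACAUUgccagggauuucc
mmu-miR-27a-3p: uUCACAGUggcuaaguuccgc
mmu-miR-24-3p: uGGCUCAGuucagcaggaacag
The 2 miR-146 microRNAs, which act on mRNAs of Toll-like and interleukin-1 receptor signalling, share the seed GAGAACU and lie on different chromosomes. Mir146b had a region of 68.75 at 1737 bp upstream, and Mir146 one of 37.2 at 5826 bp downstream. Mir21a had 2 within 10 kb, the nearer of 70.6 at 4984 bp and the higher of 81.0. Mir22 had 1 of 72.9 at 4842 bp upstream, which lay 495 bp from an IL-33 list region.

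The hairpins Mir23a, Mir27a and Mir24-2 follow each other on chromosome 8, so the region of 29.45 upstream of them, at 565, 719 and 862 bp, is 1 and the same, and a second within 10 kb scored 53.7. Mir223, a microRNA of granulocytes and macrophages on chromosome X, had a region of 21.2 at 3033 bp upstream, the one whose sequence stands under F630028O10Rik. Mir155, a microRNA of macrophage activation, had none within 50 kb, and the nearest, of 38.4, lay 92589 bp away.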

How the data were processed

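FOS chromatin from microglia of 4 mice was sequenced beside 4 inputs. Per the submitters' processing notes, Bowtie2 and HOMER were used with the builds mm10 and GRCm38. Versions, peak calling thresholds and how inputs entered were not given in the sources used. The deposited score of each merged region is, per the file headers, a value averaged over the merged peaks. Depth per library is unknown and no column holds values of a library, so there are no replicate errors and no tests.

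Regions, gene bodies and RefSeq start windows (GRCm38.p6) were joined with Python 3.11.15, numpy 2.4.6, pandas 2.3.3 and scipy 1.17.1, and the distance code was tested on simulated data. Distances run from region centres to 21887 protein-coding gene bodies. For shared regions the score was multiplied by merged peaks and divided by FOS peaks. Intervals are exact Clopper-Pearson 95% intervals for counting error only. Those over regions treat regions as independent, although 720 of the 1985 lay within 12500 bp of another of the class. Strand was known for 17492 coding genes, and 3 regions off the main chromosomes were left out. Of 401 entries in 21 gene lists, 399 matched, giving 386 different genes, 13 of them on 2 or more lists.

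Members and lists were chosen with earlier results of these data known. Genes named are those nearest the 15 highest scores, the 10 with most regions, up to 3 per list by score, every list gene with 4 or more regions, the 5 regions on each side of each limit, and the 5 densest runs. Other list genes, the run at Lgmn, the lncRNAs shown and the microRNAs were chosen after their values were seen. No genome was used here, so the planned heptamer search in whole regions was made in start windows instead.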

Additional observations from a re-analysis of the deposited data

How the results depend on the processing

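Of 29 alternatives over 7 results, 13 left the value within its counting interval or, for counts, within 1.5 times, and 16 moved it, most of them by construction, since they change the distance, calls or motif counted. Taking 3 or 4 calls gave 3212 regions with a median score of 30.025. The share near an IL-33 list region was 12.4% within 5 kb, 26.5% within 25 kb, 11.1% for IL-33 list regions of 2 or more calls and 12.4% for those without a FOS peak. Another FOS region stood within 5 kb for 48.6% and within 25 kb for 92.9%, and one with 4 calls stood within 12500 bp for 47.2%. The number of genes was 653 with regions at most 10 kb away, 2066 with genes on both sides and 415 with 2 or more regions. In start windows, TGACGTCA gave 5.56%, and TGANTCA in the central 100 bases 15.6% (5 of 32). At the starts of nearest genes, choices made after seeing the data gave 3.78% with C or G in the middle and 2.58% for TGACGTCA. Without chromosome X, also tried after seeing the data, the median score was 37.1. No paired analysis was possible because the table holds no value per library. Recurrence across mice, depth and the response to IL-33 could not be assessed from these merged scores.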
